A study of Caenorhabditis elegans with 20 samples.

Results

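The data described here are the 10 arrays of the experiment with 1 µg/ml ivermectin (IVM), of 20 arrays in the series. They were chosen by their titles, as 5 arrays of worms exposed to IVM and 5 arrays of worms exposed to the solvent alone, dimethyl sulphoxide (DMSO). All worms were Caenorhabditis elegans of the strain DA1316, which carries *avr-14*(ad1302), *avr-15*(ad1250) and *glc-1*(pk54), mutations in 3 subunits of the glutamate-gated chloride channel. The controls carry these mutations too, and the methods give another allele name for *avr-15*, which does not affect the grouping. Worms were grown from the L1 larval stage at 20°C, and at an age of 53 hr the suspension of each biological replicate was divided between plates with 1 µg/ml IVM in 0.01% v/v DMSO and plates with 0.01% v/v DMSO, all with OP50 bacteria, for 4 hr. Each array holds RNA from a pool of whole worms labelled as adults, hybridised to the Affymetrix C. elegans GeneChip. The paper describes the strain as highly resistant in its motility, but with its feeding organ, the pharynx, almost fully paralysed at this dose. Since no wild-type worms were on arrays, the values describe worms that carry these 3 mutations.

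IVM is a macrocyclic lactone that holds glutamate-gated chloride channels open and so silences nerve and muscle. In nematodes the pharynx, the muscular feeding organ, is among the most sensitive tissues. The intestine of C. elegans takes up food, stores fat, makes yolk and secretes much of the defence against microbes, and its genes of fat breakdown, desaturation and lysosomal recycling are known to respond within hours when food is removed. The genes are described below by role, from fat and carbon metabolism to uptake, recycling, defence, detoxification, signalling, nerve and muscle, and last the large families in which few or no genes passed the test.

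The values are log2 intensities of probesets, each a group of probes for a transcript, normalised by RMA. Array medians lay between 5.58 and 5.69, and no array stood apart in its median. Replicate 2 did stand apart in stage. *col-19*, the collagen gene that marks the adult cuticle, was at 7.13 in the control and 6.54 in the IVM array of replicate 2, while the 8 arrays of replicates 1, 3, 4 and 5 lay between 11.53 and 12.08. The yolk protein gene *vit-6* was at 8.49 and 7.57 in replicate 2 and between 12.46 and 13.11 elsewhere, and *rme-2*, which encodes the oocyte receptor for yolk, was at 7.58 and 6.84 against 9.31 to 10.07. Both arrays of replicate 2 were low for these 3 genes, so this difference lies between replicates. The pairing was less clear for replicates 3 and 4 than for the others. As deviations from their group means, arrays of the same number had r of 0.842, 0.884, 0.499, 0.769 and 0.742 in replicates 1 to 5. Across numbers, r was 0.673 between IVM 3 and control 4 and 0.764 between IVM 4 and control 3, above the 0.499 of pair 3 and close to the 0.769 of pair 4. The numbers of the labels were kept as pairs, and the counts of calls are also given without each replicate.

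**Figure D1:**
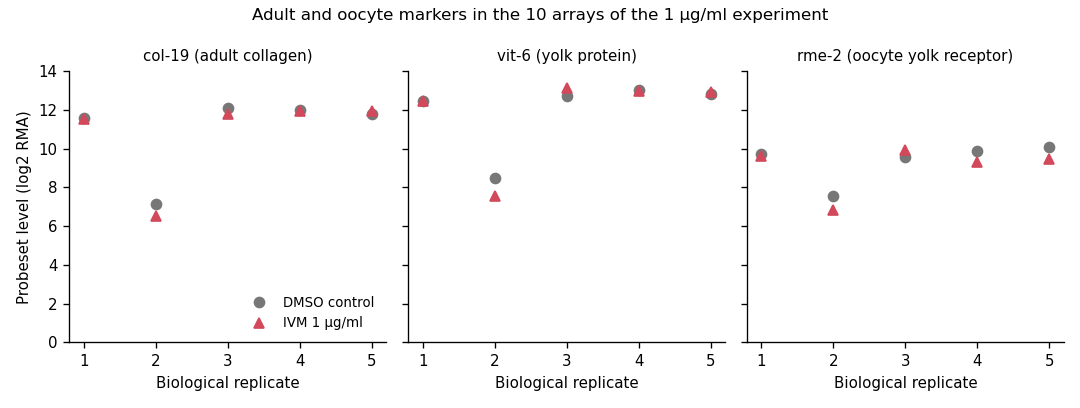
Level (log2 RMA, y axis) of *col-19*, *vit-6* and *rme-2* in each biological replicate (x axis), with controls as circles and IVM arrays as triangles. Both arrays of replicate 2 sit below those of the other replicates, *col-19* at 7.13 and 6.54 against 11.53 to 12.08.

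Markers of the main cell types were present in whole worms of both groups. Of 4 measured intestinal markers *ges-1* was higher and *act-5* lower, and their mean level ranged from 8.05 to 9.64 in the controls and from 8.28 to 9.72 with IVM. None of the markers of body wall muscle (4 measured), pharynx (4), neurons (4), hypodermis (4), oocyte and germline (5), sperm (4) and yolk (3) passed the test. In whole worms, less RNA per cell and fewer cells of a type cannot be told apart. The difference between probesets near the 3′ and the 5′ end of the transcript, a sign of RNA quality, was -0.52 to 0.65 in the controls and -0.41 to 0.37 with IVM for the actin control probesets.

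The blocked limma test, adjusted by Benjamini-Hochberg over 20563 probesets, called 434 higher with IVM (2.11%) and 281 lower (1.37%) below an adjusted p of 0.05. At an unadjusted p under 0.05 there were 3209. By gene, each taken by its brightest probeset, 366 of 16649 genes were higher (2.2%) and 231 lower (1.39%). These shares are the background for every count of called members below. For counts of members at an unadjusted p under 0.05, the background is 2682 of the 16649 genes. Of the genes called, 103 rose and 43 fell by more than 2-fold. In 269 genes (1.62%) all 5 IVM arrays lay on one side of all 5 controls. Leaving out replicate 1 or replicate 4 reduced the calls most, to 145 higher and 60 lower and to 151 higher and 67 lower, and 167 probesets were called whichever replicate was left out. Leaving out replicate 2 gave 352 higher and 235 lower, leaving out replicate 3 gave 510 and 197, leaving out both gave 555 and 236, and leaving out replicate 5 gave 358 and 267. Without the block the counts were 45 and 19. The 70 gene lists hold 4280 genes, with 193 called genes among them and 404 called genes outside them, and 52 lists had at least 1 called member. The lists and their members were chosen with earlier results of these data known. Their shares and ranks are therefore descriptions and no test of a list. The median log2 fold change of all genes was -0.01.

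**Figure D2:**
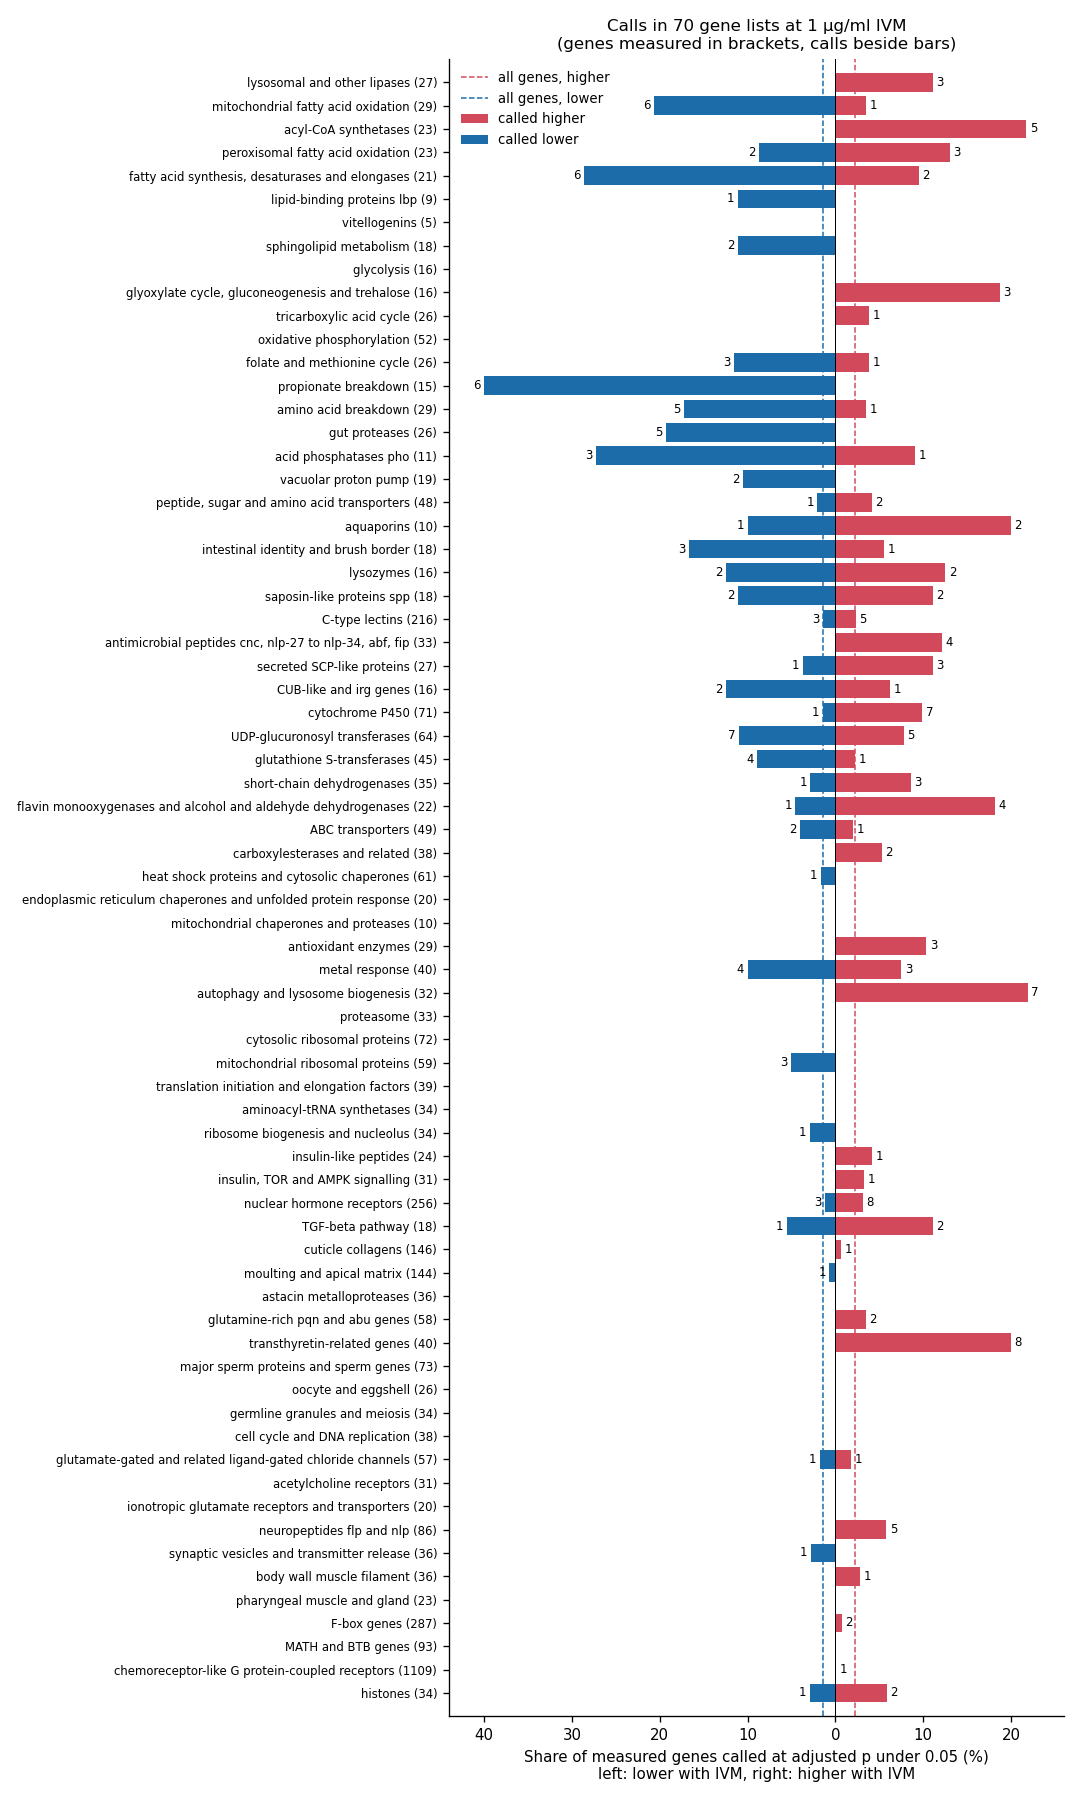
Share of the measured genes of each of 70 lists that were called lower (left, blue) or higher (right, red) with IVM at an adjusted p under 0.05, in percent, with the number called beside each bar and the shares of all genes as dashed lines (2.2% higher, 1.39% lower). Propionate breakdown had the highest share of lower genes, 40%, and autophagy and acyl-CoA synthetases the highest shares of higher genes, 21.9% and 21.7%. The lists were chosen with earlier results of these data known.

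Several genes that release or activate fatty acids rose. Of 27 lipase genes 3 were higher and 0 lower, and all 3 belong to the lysosomal acid lipase family that frees fatty acids from stored lipid. *lipl-2* read 6.45, 6.99, 7.42, 8.12 and 6.99 in IVM replicates 1 to 5 and 4.74, 4.80, 5.57, 5.39 and 5.24 in the controls. Every IVM array was above every control array, and the log2 fold change was 2.05 (adjusted p = 0.000609, SE 0.15) in limma. *lipl-1* rose by 2.51 and *lipl-3* by 0.49 (adjusted p = 0.0194, SE 0.09), the latter not called without replicate 1 or 4 (adjusted p up to 0.0807). Among 23 acyl-CoA synthetase genes, whose enzymes couple fatty acids to coenzyme A before use, 5 were higher and 0 lower. These were *acs-7* with 1.36 (SE 0.22), *acs-22* with 0.93 (SE 0.17), *acs-2* with 0.92 (SE 0.20), *acs-17* with 0.81 (SE 0.17, higher in 4 of 5 pairs) and *acs-12* with 0.58 (SE 0.08), at adjusted p of 0.00882 to 0.0466. Only *acs-7* was called whichever replicate was left out, and the other 4 were lost without replicate 1 or 4, among others, with adjusted p up to 0.156. The median of the synthetase list was 0.07.

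Genes of fatty acid oxidation, in which beta-oxidation shortens fatty acids step by step, moved both ways. Of 29 genes of the mitochondrial list 1 was higher and 6 lower, and of 23 genes of the peroxisomal list 3 were higher and 2 lower. The gene that rose in the mitochondrial list, *gbh-2*, does not act in beta-oxidation itself. It encodes a gamma-butyrobetaine hydroxylase, an enzyme that in other animals makes carnitine, the carrier of fatty acids into mitochondria. Its IVM arrays read 8.28, 8.79, 8.26, 8.67 and 7.40 and its controls 7.01, 7.0, 6.60, 6.44 and 6.53. The groups did not overlap, with replicate 5 the lowest IVM array, and the log2 fold change was 1.57 (adjusted p = 0.00352, SE 0.17). The acyl-CoA oxidase gene *acox-3* of the peroxisome read 8.87, 10.10, 9.29, 8.94 and 8.12 with IVM and 8.0, 9.09, 7.18, 7.41 and 6.58 without. Here the groups overlapped, since both arrays of replicate 2 were high, but each pair rose, by 1.41 on average (adjusted p = 0.00495, SE 0.17). A second oxidase gene, *acox-1.6*, rose by 0.61 (SE 0.08) and *maoc-1*, which encodes a peroxisomal hydratase, by 0.37 (SE 0.08). Lower were *acox-1.5* with -0.72 (SE 0.16) and *pmp-5*, an ABC transporter gene of the peroxisomal membrane, with -0.97 (SE 0.20).

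The 6 lower genes of the mitochondrial list were *cpt-5*, of the carnitine palmitoyltransferase family that loads fatty acids onto carnitine, the acyl-CoA dehydrogenase genes *acdh-1*, *acdh-2* and *acdh-9*, and the enoyl-CoA hydratase genes *ech-6* and *ech-7*. Of these, *acdh-1* and *ech-6* are counted again in the list of propionate breakdown below. *acdh-2* read 5.61, 5.29, 5.44, 5.60 and 5.63 with IVM and 7.41, 5.67, 6.43, 6.77 and 6.25 in the controls, so that the groups stayed apart, with the control of replicate 2 the closest to the IVM arrays. Its log2 fold change was -0.99 (adjusted p = 0.0233, SE 0.18). The other 5 lay between -0.84 for *acdh-1* and -0.61 for *ech-6*, and *cpt-5* fell by 0.71 (adjusted p = 0.01, SE 0.10). None of the 6 was called with every replicate left out in turn, with adjusted p up to 0.0504 for *acdh-9* (replicate 4) and 0.0553 for *cpt-5* (replicate 1) and up to 0.193 for *ech-7* (replicates 1 to 4). In the peroxisomal list *acox-3* and *acox-1.6* were called whichever replicate was left out, *acox-1.5* and *pmp-5* were lost without any of replicates 1, 3, 4 and 5 (adjusted p up to 0.18), and *maoc-1* without any 1 replicate (adjusted p up to 0.156).

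Within the synthesis of fatty acids, 3 desaturase genes and 3 elongase genes fell while 2 desaturase genes of polyunsaturated fat rose. Of 21 genes 2 were higher and 6 lower, and the list's median was -0.19 and below 0 in all 5 pairs. *fat-5*, *fat-6* and *fat-7* encode the delta-9 desaturases, which put the first double bond into a saturated fatty acid, and their log2 fold changes were -0.77 (SE 0.14), -0.73 (SE 0.11) and -1.19 (SE 0.13). *elo-2*, an elongase gene for palmitic acid, read 10.19, 10.53, 9.68, 9.48 and 9.61 with IVM and 11.10, 11.61, 10.71, 10.50 and 10.15 without. It fell in each pair by 0.91 on average (adjusted p = 0.00307, SE 0.10), and the groups overlapped because replicates 1 and 2 were high in both. *elo-5* and *elo-6*, needed for branched-chain fatty acids, fell by 1.1 (adjusted p = 0.0121, SE 0.17) and 0.69 (adjusted p = 0.0474, SE 0.15). Of the desaturase genes that act after *fat-6* and *fat-7*, *fat-3* (delta-6) and *fat-4* (delta-5) rose by 1.02 (adjusted p = 0.00336, SE 0.11) and 0.46 (adjusted p = 0.0454, SE 0.10), and *fat-2* and *fat-1* were at 0.13 (adjusted p = 0.451, SE 0.07) and 0.10 (adjusted p = 0.711, SE 0.09). *fat-3* read 11.03, 11.63, 10.92, 10.48 and 10.05 with IVM against 10.26, 10.72, 9.48, 9.31 and 9.24. Calls of *elo-2*, *fat-3* and *fat-7* held whichever replicate was left out, those of *fat-6* and *elo-5* were lost without replicate 1 or 4 (adjusted p up to 0.0711), and those of *fat-5*, *elo-6* and *fat-4* also without others (adjusted p up to 0.175).

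**Figure D3:**
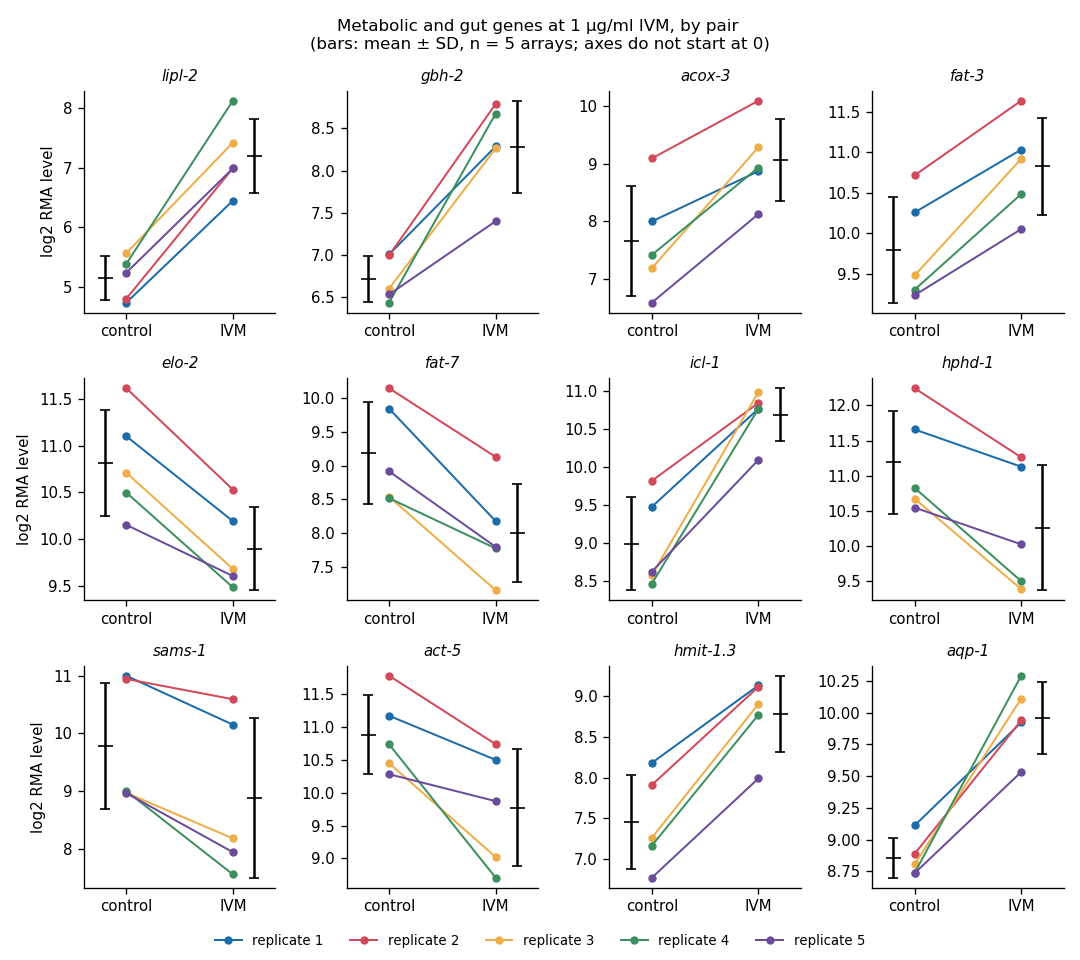
Level (log2 RMA, y axis) of 12 metabolic and gut genes in control and IVM arrays, with lines joining the arrays of a replicate and black bars for the mean ± SD of 5 arrays. Lines slope the same way in all 5 pairs in each panel, for *fat-7* by -1.19 on average and for *icl-1* by 1.70.

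Carriers of lipid and yolk proteins had few calls. *lbp-3* was the only called member of 9 fatty acid binding protein genes, at -0.45 (adjusted p = 0.0446, SE 0.10), and its call was lost without any 1 replicate (adjusted p up to 0.149). Of 5 vitellogenin genes 0 passed (3 at an unadjusted p under 0.05), and the median of -0.28 was below 0 in all 5 pairs. All 5 values were below 0, from *vit-1* at -0.65 (adjusted p = 0.101, SE 0.18) to *vit-2* at -0.08 (adjusted p = 0.893, SE 0.16). *vit-2* was at 0.11 without replicate 2, where it was low in both arrays, and at 0.02 without replicates 2 and 3. Among 18 genes of sphingolipid metabolism *sptl-2* and *sptl-3*, which encode subunits of serine palmitoyltransferase, the first enzyme of the route, fell by 0.56 (adjusted p = 0.0278, SE 0.11) and 0.59 (adjusted p = 0.0432, SE 0.13). Both were lost without replicate 1 or 4 and 1 more (adjusted p up to 0.173).

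In carbon metabolism the clearest rise was in the glyoxylate cycle, which lets worms make sugar from fat. *icl-1*, the gene of its bifunctional enzyme isocitrate lyase and malate synthase, read 10.77, 10.85, 10.99, 10.77 and 10.10 with IVM and 9.48, 9.82, 8.58, 8.47 and 8.63 in the controls. All IVM arrays were above all controls, the closest being replicate 5, and the log2 fold change was 1.70 (adjusted p = 0.00506, SE 0.20). The trehalase gene *tre-3* rose by 0.76 (adjusted p = 0.00352, SE 0.08) and *pck-1*, the gene of phosphoenolpyruvate carboxykinase, by 0.40 (adjusted p = 0.0474, SE 0.09), the latter lost without any 1 replicate (adjusted p up to 0.156). Of 16 genes of the glyoxylate cycle, gluconeogenesis and trehalose 3 were higher and 0 lower, with a median of 0.19 that was above 0 in all 5 pairs. Of 16 glycolysis genes 0 passed (2 at an unadjusted p under 0.05), with a median of 0.02, and of 52 genes of oxidative phosphorylation 0 passed (9 at an unadjusted p under 0.05), with a median of -0.02 that changed sign on a second quantile normalization. Of 26 genes of the tricarboxylic acid cycle *aco-2*, which encodes mitochondrial aconitase, was at 0.44 (adjusted p = 0.0439, SE 0.10) and was lost without any 1 replicate (adjusted p up to 0.116).

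Genes for the breakdown of propionate, a product of odd-chain and branched-chain fuels, had the highest share called lower of the 70 lists. Of 15 genes 6 were lower (40%) and 0 higher. The list's median was only -0.08, below 0 in all 5 pairs, with 10 genes below 0 and 5 above. *acdh-1*, *ech-6*, *hach-1* and *hphd-1* encode enzymes of the shunt that worms use when vitamin B12 is scarce, and *nhr-68* encodes a nuclear hormone receptor known to activate the shunt. *hphd-1* read 11.13, 11.26, 9.39, 9.50 and 10.03 with IVM and 11.66, 12.24, 10.67, 10.83 and 10.55 without. It was lower in each pair, by 0.93 on average (adjusted p = 0.0106, SE 0.14), and the groups overlapped because replicates 1 and 2 were high in both. A second probeset of *hphd-1* had the same sign but was not called. The shunt genes *acdh-1*, *hach-1* and *ech-6* fell by 0.84 (SE 0.16), 0.66 (SE 0.11) and 0.61 (SE 0.12). *nhr-68* fell by 0.78 (adjusted p = 0.013, SE 0.12) and *nhr-114*, which encodes a receptor tied to B12 and methionine supply in the gut, by 0.92 (adjusted p = 0.00878, SE 0.13). All 6 calls were lost without 1 or more replicates, of *nhr-114* without replicate 1 (adjusted p = 0.0517), of *hphd-1* without replicate 4 (adjusted p = 0.0528) and of *ech-6* without any of replicates 2 to 5 (adjusted p up to 0.145).

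In the folate and methionine cycle 3 of 26 genes were lower and 1 higher, with a median of -0.20 that was below 0 in all 5 pairs. After the folate transporter gene *folt-2* (-2.55) came *sams-1*, the gene of the main S-adenosylmethionine synthetase, which supplies methyl groups for phosphatidylcholine. It read 10.15, 10.59, 8.18, 7.55 and 7.94 with IVM and 11, 10.94, 8.97, 9.0 and 8.96 in the controls. Replicates 1 and 2 were high in both groups, and within pairs *sams-1* fell by 0.89 (adjusted p = 0.013, SE 0.14). *gldc-1*, of the glycine cleavage system, fell by 0.73 (adjusted p = 0.0233, SE 0.13), whereas *pmt-1*, whose methyltransferase uses S-adenosylmethionine to make phosphatidylcholine, rose by 0.68 (adjusted p = 0.0238, SE 0.12). Of 29 genes of amino acid breakdown 5 were lower and 1 higher, and the median of -0.28 was below 0 in all 5 pairs. Lower were *haly-1* (histidine) with -0.55 (SE 0.08), *tatn-1* (tyrosine) with -0.44 (SE 0.08), *bckd-1B* (branched-chain amino acids) with -0.47 (SE 0.10), and *kynu-1* and *haao-1* of the kynurenine route from tryptophan with -0.69 (SE 0.15) and -0.68 (SE 0.15). Higher was the proline dehydrogenase gene *prdh-1* with 0.56 (SE 0.12). *folt-2* was called whichever replicate was left out. *sams-1* and *haly-1* were lost without replicate 1 (adjusted p up to 0.0672), *pmt-1* without replicate 4 (adjusted p = 0.109), *gldc-1* and *tatn-1* without 1 or 4 (adjusted p up to 0.0942), and the others without 4 of the 5 replicates (adjusted p up to 0.196).

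**Figure D4:**
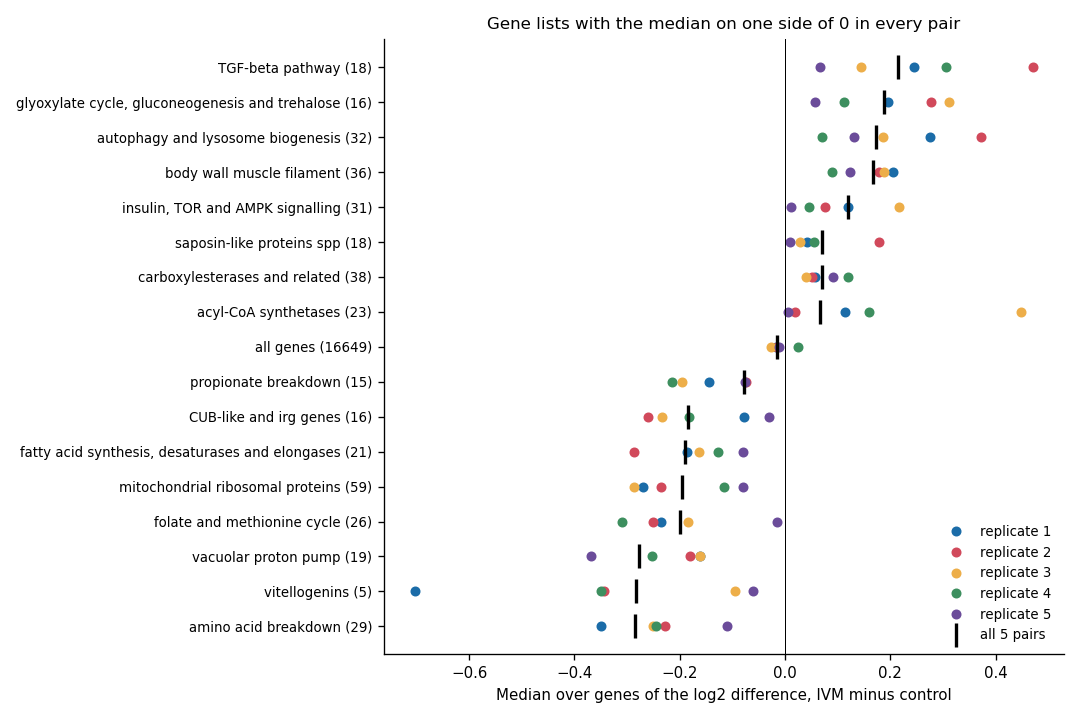
Median over the genes of a list of the log2 difference between IVM and control (x axis) in each of 5 pairs (coloured points) and over all pairs (black bars), for the 16 lists with all 5 pair medians on one side of 0, with all genes for comparison at -0.01. The lowest is amino acid breakdown at -0.28 and the highest the TGF-beta pathway at 0.21.

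At the surface of the gut, 3 structural and exchanger genes fell, and the transporter and aquaporin genes that were called went both ways. *act-5*, the actin of the microvilli that form the brush border, read 10.50, 10.74, 9.02, 8.71 and 9.87 with IVM and 11.17, 11.78, 10.45, 10.73 and 10.28 without. The groups overlapped and each pair fell, by 1.11 on average (adjusted p = 0.0253, SE 0.21). The intermediate filament gene *ifd-2* fell by 0.61 (adjusted p = 0.0312, SE 0.12) and *nhx-2*, a sodium-proton exchanger of the apical membrane, by 0.97 (adjusted p = 0.011, SE 0.15). *pept-1*, the gene of the main intestinal transporter of dipeptides, which works with *nhx-2*, fell by 0.71 (adjusted p = 0.0196, SE 0.12). *ges-1*, the gut esterase gene that is a standard marker of the intestine, rose by 0.91 (adjusted p = 0.0024, SE 0.09). Of 18 genes of intestinal identity and brush border *ges-1* was the 1 higher and *act-5*, *ifd-2* and *nhx-2* were the 3 lower. *nhx-2* and *ges-1* were called whichever replicate was left out, *pept-1* was lost without replicate 1 (adjusted p = 0.0636), *act-5* without 1, 3 or 4 (adjusted p up to 0.0692) and *ifd-2* without 1, 2 or 4 (adjusted p up to 0.124).

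Of 48 peptide, sugar and amino acid transporter genes 2 were higher (4.17%) and 1 lower (2.08%), against 2.2% and 1.39% of all genes. The list's median was 0.01. *hmit-1.3*, of the proton-coupled myo-inositol transporter family, read 9.13, 9.11, 8.90, 8.77 and 7.99 with IVM and 8.18, 7.91, 7.26, 7.17 and 6.78 in the controls. It rose in every pair by 1.32 on average (adjusted p = 0.00137, SE 0.11), and only the IVM array of replicate 5 lay below a control, that of replicate 1. *nac-2*, of the sodium-coupled dicarboxylate transporters, rose by 0.58 (adjusted p = 0.0303, SE 0.11) and was lost without replicate 1, 3 or 4 (adjusted p up to 0.137). Of 10 aquaporin genes, which form channels for water or glycerol, *aqp-1* and *aqp-2* were higher and *aqp-4* lower. *aqp-1*, a glycerol channel of the intestine, read 9.92, 9.94, 10.11, 10.29 and 9.53 with IVM and 9.11, 8.89, 8.81, 8.74 and 8.74 without. The groups were apart, and the log2 fold change was 1.1 (adjusted p = 0.00352, SE 0.12). *aqp-2* was at 0.55 (adjusted p = 0.031, SE 0.11) and *aqp-4* at -0.85 (adjusted p = 0.0149, SE 0.14), both lost without replicate 1 or 4 (adjusted p up to 0.125).

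Digestive enzyme genes that passed the test were lower, except *pho-4*. Of 26 gut protease genes 5 were lower and 0 higher, the aspartyl protease genes *asp-8*, *asp-12* and *asp-14* and the cathepsin B-like genes *cpr-5* and *cpr-8*, with log2 fold changes from -1.70 (*asp-12*, SE 0.35) to -0.47 (*asp-8*, SE 0.08). The list's median was 0.02. Of 11 acid phosphatase genes 3 were lower, *pho-13* (-1.88), *pho-1* (-1.26, SE 0.20), which encodes a phosphatase of the intestinal lumen, and *pho-7* (-0.86, SE 0.18), and *pho-4* was higher (0.72, SE 0.11). The vacuolar proton pump, which acidifies lysosomes and the gut, had 2 of 19 subunit genes called, *vha-10* with -0.44 (adjusted p = 0.0478, SE 0.10) and *vha-11* with -0.45 (adjusted p = 0.0498, SE 0.10), a median of -0.28 that was below 0 in all 5 pairs, and 11 genes at an unadjusted p under 0.05. Except for *pho-13*, all of these calls were lost without replicate 4, and all but that of *pho-4* also without replicate 1 (adjusted p up to 0.175).

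Autophagy, by which cells digest their own contents in lysosomes, had a share of genes called higher close to the 21.7% of the acyl-CoA synthetases. These were the 2 highest shares among lists that were chosen with earlier results known. Of 32 genes 7 were higher (21.9%) and 0 lower, with a median of 0.17 that was above 0 in all 5 pairs. *sqst-1*, the gene of the receptor that brings ubiquitinated cargo to autophagosomes, read 8.91, 9.44, 8.65, 8.31 and 7.94 with IVM and 8.05, 8.17, 7.33, 7.53 and 7.48 without. Its groups overlapped only through replicate 5, and the log2 fold change was 0.94 (adjusted p = 0.00878, SE 0.13). *lgg-1* and *lgg-2*, which encode the ubiquitin-like proteins that coat the autophagosome, rose by 0.73 (adjusted p = 0.0146, SE 0.12) and 0.89 (adjusted p = 0.0395, SE 0.19). For *lgg-1* the IVM arrays read 12.21, 12.28, 12.61, 12.61 and 12.17 and the controls 11.62, 11.10, 11.96, 11.74 and 11.82, with no overlap. *atg-16.2* and *atg-18*, which act when the autophagosome membrane forms, rose by 0.96 (SE 0.14) and 0.53 (SE 0.09), the adaptor gene *epg-2* by 0.64 (SE 0.12) and *scav-3*, which encodes a lysosomal membrane protein, by 0.66 (SE 0.11). These 7 calls were not kept when replicates were left out in turn, with adjusted p of 0.0502 for *sqst-1* (without replicate 1), 0.052 for *atg-16.2* (without replicate 4) and up to 0.157 for the others (without 1 or 4 in each case).

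Metal genes moved in both directions, with 3 of 40 higher and 4 lower. *mtl-1*, the metallothionein gene, is described by its values of 8.25, 9.51, 9.99, 10.64 and 8.42 with IVM and 3.38, 3.43, 6.70, 5.08 and 3.27 in the controls, where replicates 3 and 4 were above the other controls. *mtl-2*, the other metallothionein gene, was at 0.19 (adjusted p = 0.334, SE 0.08). Genes of heme and iron were called in both directions. *hrg-7*, which encodes a secreted aspartyl protease-like protein that signals heme status between tissues, read 9.14, 9.55, 9.04, 8.91 and 8.99 with IVM and 10.22, 10.23, 10.53, 10.78 and 10.70 without, with no overlap and a log2 fold change of -1.36 (adjusted p = 0.00516, SE 0.16). The heme importer gene *hrg-4* fell by 1.31 (adjusted p = 0.0467, SE 0.29) and the iron storage ferritin gene *ftn-2* by 0.63 (adjusted p = 0.0119, SE 0.10), while *smf-3*, the gene of the main intestinal iron importer, rose by 0.54 (adjusted p = 0.0233, SE 0.10). *ftn-2* read 10.98, 11.32, 11.08, 11.21 and 11.83 with IVM and 11.71, 12.04, 11.92, 11.78 and 12.11 without, and overlapped through replicate 5. The second ferritin gene *ftn-1* was at -0.43 (adjusted p = 0.3, SE 0.18). Of the zinc transporter genes *zipt-2.1* rose by 0.51 (SE 0.09) and *zipt-15* fell by 0.36 (SE 0.08). *mtl-1* and *hrg-7* were called whichever replicate was left out, and *hrg-4*, *ftn-2*, *smf-3*, *zipt-2.1* and *zipt-15* were lost without replicate 1 or 4, among others for some (adjusted p up to 0.191).

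Of 29 genes of antioxidant enzymes 3 were higher and 0 lower. *gpx-3*, a glutathione peroxidase gene, read 7.72, 8.68, 7.41, 7.51 and 8.10 with IVM and 6.83, 6.72, 6.98, 5.97 and 6.39 without, with no overlap and a log2 fold change of 1.31 (adjusted p = 0.013, SE 0.21). *ctl-2*, the catalase of peroxisomes, rose by 0.71 (adjusted p = 0.00607, SE 0.09) and *sod-4*, an extracellular superoxide dismutase gene, by 0.59 (adjusted p = 0.0105, SE 0.09). *ctl-2* was called whichever replicate was left out, the other 2 not without replicate 1 or 4 (adjusted p up to 0.0685). Chaperone genes were seldom called. Of 61 heat shock and cytosolic chaperone genes *hsp-17*, of the small heat shock family, was lower at -0.79 (SE 0.14, adjusted p = 0.023; up to 0.102 without replicate 1 or 4), and *hsp-16.2* and *hsp-70*, which rise strongly on heat, were at -0.12 and 0.14 (adjusted p = 0.586 and 0.492). Of 20 genes of the endoplasmic reticulum chaperones 0 passed (3 at an unadjusted p under 0.05), *hsp-4* among them at -0.19 (adjusted p = 0.68), and of 10 mitochondrial chaperones and proteases 0 passed (2 at an unadjusted p under 0.05), from *clpp-1* at 0.47 (adjusted p = 0.114, SE 0.14) to *ubl-5* at -0.32 (adjusted p = 0.398, SE 0.16).

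Lysozyme and saposin-like genes were called in both directions. Of 16 lysozyme genes 2 were higher and 2 lower. *ilys-3*, an invertebrate-type lysozyme gene, rose by 2.51, *ilys-2* of the same type rose by 0.71 (SE 0.14) and *ilys-5* fell by 0.59 (SE 0.13), and *lys-6*, of the protist type, fell by 1.12 (adjusted p = 0.00224, SE 0.11). Of 18 saposin-like genes, whose products open membranes, *spp-8* and *spp-18* rose by 0.86 (SE 0.11) and 0.76 (SE 0.12) and *spp-23* and *spp-4* fell by 2.79 (SE 0.21) and 0.75 (SE 0.11). The values of *spp-23* were 6.77, 7.71, 6.29, 6.65 and 7.93 with IVM and 9.92, 10.02, 9.80, 9.68 and 9.90 without, so that the controls lay close together and far above every IVM array. *ilys-3*, *lys-6*, *spp-23* and *spp-8* held whichever replicate was left out, *spp-4* was lost without replicate 1 (adjusted p = 0.0553), and *ilys-2*, *ilys-5* and *spp-18* without 1 or 4 among others (adjusted p up to 0.163).

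C-type lectins, secreted proteins that bind sugars, are a large family here with 216 genes, of which 5 were higher and 3 lower, shares close to those of all genes. *clec-7* stood out, with 7.86, 8.13, 7.79, 7.55 and 7.09 with IVM and 6.12, 6.13, 5.89, 5.49 and 5.70 without. Its groups were apart and its log2 fold change was 1.82 (adjusted p = 0.000291, SE 0.11). The other called lectin genes lay between -1.12 for *clec-70* (adjusted p = 0.0203, SE 0.20) and 0.54 for *clec-264* (adjusted p = 0.0349, SE 0.11), and all 7 were lost without replicate 1 or 4 (adjusted p up to 0.16). Of 33 antimicrobial peptide genes 4 were higher and 0 lower. *cnc-4*, a caenacin gene of the epidermis, read 8.04, 7.31, 8.32, 8.43 and 8.23 with IVM and 7.09, 5.84, 6.71, 6.63 and 6.71 without, with both arrays of replicate 2 the lowest of their group and no overlap. Its log2 fold change was 1.47 (adjusted p = 0.001, SE 0.12). *nlp-28* and *nlp-29*, epidermal peptides of the same response to wounding and fungi, rose by 1.12 (SE 0.20) and 0.96 (SE 0.20), and *abf-5*, of the defensin-like ABF peptides, by 0.76 (SE 0.13). These 3 were lost without replicate 1, 4 or 5, *nlp-29* also without replicate 2 (adjusted p up to 0.145), and *cnc-4* with none.

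Of 27 genes of secreted SCP-like proteins 3 were higher and 1 lower. Beside *scl-2* (3.27), *scl-14* rose by 1.51 (adjusted p = 0.00352, SE 0.17) and *scl-5* by 1.31 (SE 0.18, adjusted p = 0.00853; 0.0545 without replicate 1), and *lon-1*, an SCP-like gene that sets body size, fell by 1.1. Of 16 CUB-like and pathogen-response genes *irg-8* fell by 1.35 (SE 0.22, adjusted p = 0.0143; 0.0548 without replicate 4), *dod-24* fell by 0.71 (adjusted p = 0.00631, SE 0.09) and *dod-22* rose by 0.64 (SE 0.12, adjusted p = 0.0233; up to 0.0922 without replicate 1, 2, 4 or 5). Transthyretin-related genes, a nematode family of small secreted proteins, had 8 of 40 genes higher (20%) and 0 lower. *ttr-17* read 9.29, 10.11, 10.06, 10.45 and 10.30 with IVM and 8.09, 7.97, 9.0, 9.0 and 8.38 without, with no overlap and a log2 fold change of 1.55 (adjusted p = 0.00259, SE 0.16). *ttr-23* rose by 1.90 (SE 0.22), *ttr-44* by 1.45 (SE 0.20), *ttr-29* by 1.18 (SE 0.18) and *ttr-21* by 1.11 (SE 0.18), and *ttr-27*, *ttr-26* and *ttr-51* by 0.61 to 0.83. The first 3 were called whichever replicate was left out, the other 5 not without replicate 1 or 4 (adjusted p up to 0.0966).

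**Figure D5:**
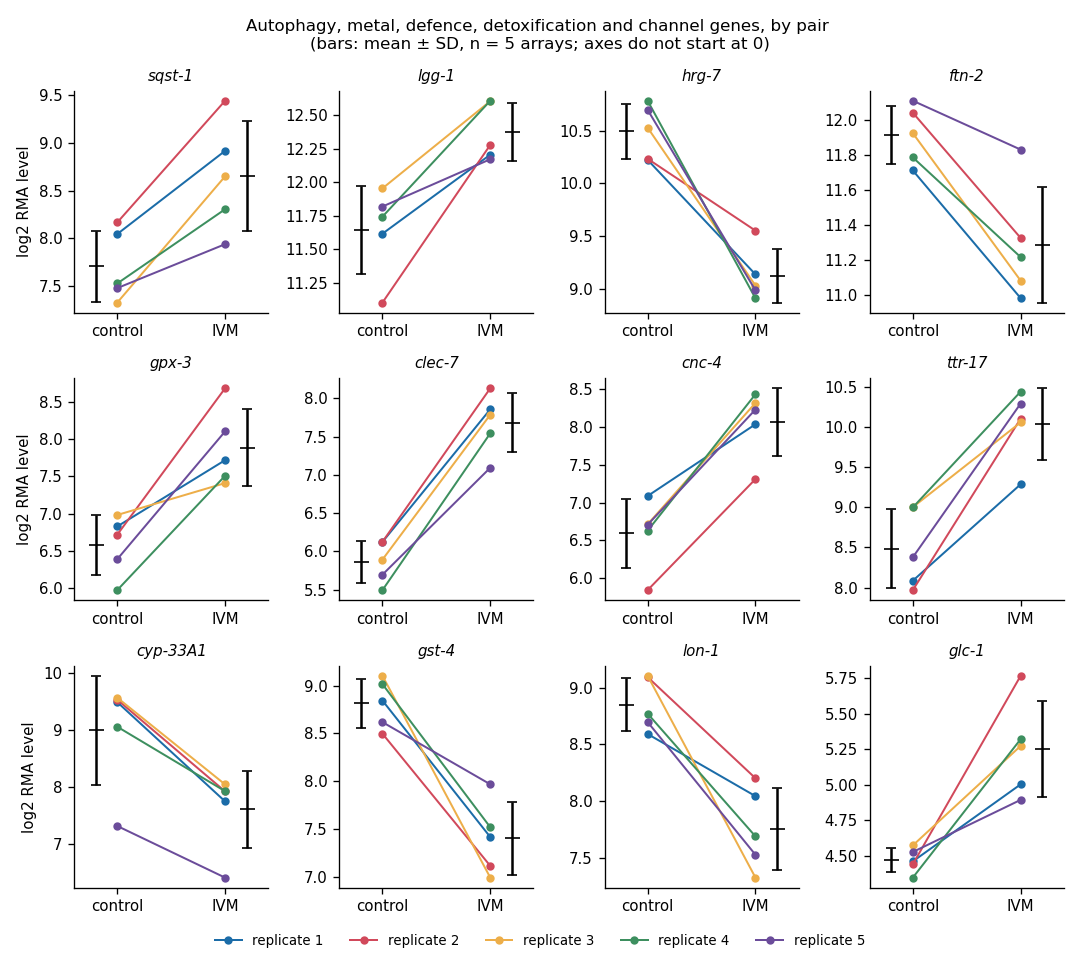
Level (log2 RMA, y axis) of 12 genes of autophagy, metals, defence, detoxification, growth and channels in control and IVM arrays, with lines joining the arrays of a replicate and black bars for the mean ± SD of 5 arrays. In each panel all 5 pairs slope the same way, and *cnc-4*, *clec-7* and *hrg-7* are among those where no IVM array overlaps a control.

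Detoxification families had some members far from 0 and medians near 0. Of 71 cytochrome P450 genes, whose enzymes oxidise lipids and foreign compounds, 7 were higher and 1 lower, with a median of 0.01. *cyp-37B1* rose by 3.09, *cyp-34A9* by 1.29 (adjusted p = 0.00631, SE 0.17) and *cyp-33C7* by 0.99 (adjusted p = 0.00336, SE 0.11). *cyp-33A1*, the P450 gene that fell, read 7.75, 7.93, 8.05, 7.93 and 6.42 with IVM and 9.49, 9.53, 9.56, 9.06 and 7.32 without. Both arrays of replicate 5 were low, so the groups overlapped, and within pairs it fell by 1.38 (adjusted p = 0.0018, SE 0.13). These 4 were called whichever replicate was left out, and the other 4 called P450 genes were not. Of 64 UDP-glucuronosyl transferase genes, which attach sugars, 5 were higher and 7 lower, led by *ugt-25* with 1.04 (SE 0.16) and by *ugt-63* with -1.77 (SE 0.33). *ugt-12* with -0.79 (SE 0.08) and *ugt-47* with -0.65 (SE 0.09) were the 2 of these 12 called whichever replicate was left out, and *ugt-25* was lost without replicate 4 (adjusted p = 0.0591) and *ugt-63* without 1, 3, 4 or 5 (adjusted p up to 0.124).

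Glutathione S-transferase genes fell more often than they rose, 4 lower and 1 higher of 45. *gst-4*, widely used as a reporter of the oxidative stress factor SKN-1, read 7.41, 7.11, 6.99, 7.52 and 7.97 with IVM and 8.84, 8.50, 9.10, 9.01 and 8.62 without, with no overlap and a log2 fold change of -1.41 (adjusted p = 0.0055, SE 0.17). *gst-10*, *gst-26* and *gst-27* fell by 1.45 (SE 0.21), 1.04 (SE 0.15) and 0.69 (SE 0.12) and *gsto-3*, of the omega class, rose by 0.72 (SE 0.15). *gst-4* was called whichever replicate was left out, the other 4 not without replicate 1 or 4 (adjusted p up to 0.141). Of 35 short-chain dehydrogenase genes *dhs-2*, *dhs-18* and *dhs-31* rose by 1.16 (SE 0.14), 0.94 (SE 0.12) and 0.67 (SE 0.13) and *dhs-25* fell by 1.56 (SE 0.15), *dhs-31* alone being lost without replicate 1, 4 or 5 (adjusted p up to 0.131). Of 22 genes of flavin monooxygenases and alcohol and aldehyde dehydrogenases 4 were higher and 1 lower. The alcohol dehydrogenase gene *adh-1*, also known as sodh-1, rose by 2.11 (SE 0.23), the flavin monooxygenase genes *fmo-1* and *fmo-2* by 0.93 (SE 0.16) and 1.18 (SE 0.26, higher in 4 of 5 pairs) and *alh-1*, an aldehyde dehydrogenase gene, by 0.44 (SE 0.09), and the lower gene was *hphd-1* of the propionate shunt. *adh-1* was called whichever replicate was left out, and the other 3 were lost without replicate 1 or 4 among others (adjusted p up to 0.182).

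Of 49 ABC transporter genes, the family that includes the P-glycoprotein efflux pumps, 1 was higher and 2 lower. *pgp-11* read 4.78, 5.17, 5.13, 4.86 and 4.53 with IVM and 4.06, 4.38, 3.91, 4.22 and 4.24 without. The groups did not overlap and the log2 fold change was 0.73 (adjusted p = 0.018, SE 0.12), at a level near the low end of the array's range. *haf-6* and *mrp-4* fell by 0.46 (SE 0.09) and 0.45 (SE 0.10). *pgp-11* was lost without replicate 1 or 4 and the other 2 without 1, 2, 4 or 5 (adjusted p up to 0.151). Of 38 carboxylesterase genes *cest-4* rose beside *ges-1*, by 0.53 (SE 0.11, adjusted p = 0.0389; up to 0.168 without replicate 1, 3, 4 or 5).

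Among regulators, 8 of 256 nuclear hormone receptor genes were higher and 3 lower, against 2.2% and 1.39% of all genes. Beside *nhr-114* and *nhr-68*, *nhr-12* fell by 0.49 (SE 0.08), and the rises ran from *nhr-18* with 1.12 (adjusted p = 0.013, SE 0.18) to *nhr-121* with 0.34 (adjusted p = 0.0498, SE 0.08), with *nhr-32* at 0.62 (adjusted p = 0.00928, SE 0.09). *nhr-49*, which drives fasting genes in the gut, was at 0.27 (adjusted p = 0.241, SE 0.10), and *hlh-30*, the gene of the main lysosomal transcription factor, at 0.22 (adjusted p = 0.332, SE 0.10). All 11 receptor calls were lost without replicate 1 or 4 (adjusted p up to 0.187). In the TGF-beta pathway, which sets body size and larval arrest, 2 of 18 genes were higher and 1 lower, with a median of 0.21 that was above 0 in all 5 pairs. *lon-1*, a target that the body size branch represses, read 8.04, 8.20, 7.32, 7.69 and 7.53 with IVM and 8.59, 9.09, 9.11, 8.77 and 8.70 without, with no overlap and a log2 fold change of -1.1 (adjusted p = 0.00928, SE 0.16). *sma-10*, which encodes a membrane protein that helps the receptors, rose by 0.72 (adjusted p = 0.011, SE 0.11) and *sma-9*, a zinc finger cofactor gene, by 0.63 (adjusted p = 0.0242, SE 0.12). A second probeset of *sma-10* had the opposite sign. *lon-1* was called whichever replicate was left out, *sma-10* and *sma-9* not without replicate 1 or 4 (adjusted p up to 0.12).

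Of 24 insulin-like peptide genes *ins-35* was higher, at 0.63 (SE 0.12, adjusted p = 0.0293; up to 0.124 without replicate 1, 2, 4 or 5), and both arrays of replicate 2 were high for it. Of 31 genes of insulin, TOR and AMPK signalling only *lgg-1*, which the autophagy list also holds, was called, while *daf-16*, the FOXO factor gene, was at 0.34 (adjusted p = 0.202, SE 0.12) and the median of 0.12 was above 0 in all 5 pairs.

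In nerve and muscle the genes of the drug's targets changed in 1 of the mutated subunits. *glc-1* read 5.00, 5.77, 5.27, 5.32 and 4.89 with IVM and 4.46, 4.44, 4.57, 4.35 and 4.53 in the controls, with no overlap and a log2 fold change of 0.78 (adjusted p = 0.0195, SE 0.14). The call was lost without replicate 1 or 4 (adjusted p up to 0.0922), the level is low, and where its probes lie relative to the pk54 mutation is not given in the sources used here. *avr-14* was at -0.08 (adjusted p = 0.786, SE 0.10), and *avr-15* has no probeset of its own and gets no value. Of 57 glutamate-gated and related chloride channel genes *lgc-54* was the other called member, at -0.54 (adjusted p = 0.0106, SE 0.08), also lost without replicate 1 or 4 (adjusted p up to 0.0605). Of 31 acetylcholine receptor genes 0 passed (2 at an unadjusted p under 0.05) and of 20 ionotropic glutamate receptor and transporter genes 0 passed (4 at an unadjusted p under 0.05).

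Neuropeptide genes had 5 of 86 higher (5.81%, against 2.2% of all genes) and 0 lower. Their median of 0.23 was 0.25, 0.57, 0.41 and 0.31 in pairs 1, 2, 4 and 5 and -0.26 in pair 3. *nlp-8* rose by 0.59 (adjusted p = 0.011, SE 0.09), *nlp-15* by 0.84 (adjusted p = 0.031, SE 0.16) and *nlp-51* by 0.60 (adjusted p = 0.0489, SE 0.13). The other 2 were the epidermal peptides *nlp-28* and *nlp-29*, which are also counted among the antimicrobial peptides above. All 5 were lost without replicate 1 or 4 (adjusted p up to 0.166). *bas-1*, the decarboxylase gene for dopamine and serotonin synthesis, fell by 0.60 (SE 0.13, adjusted p = 0.0398; up to 0.168 without replicates 1 to 4) and was the only called member of 36 synaptic genes. Of 36 body wall muscle filament genes *mlc-3*, a myosin light chain gene, was at 0.36 (SE 0.08, adjusted p = 0.0446; lost without any 1 replicate, up to 0.172), with 15 genes at an unadjusted p under 0.05 and a median of 0.17 above 0 in all 5 pairs. Of 23 genes of pharyngeal muscle and glands 0 passed (8 at an unadjusted p under 0.05), with a median of 0.14 that was -0.13 in pair 3.

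Genes of protein synthesis and turnover had few calls. Of 72 cytosolic ribosomal protein genes 0 passed (1 at an unadjusted p under 0.05), with pair medians between -0.04 and 0.03. Of 39 translation factor genes 0 passed (3 at an unadjusted p under 0.05), of 34 aminoacyl-tRNA synthetase genes 0 passed (3) and of 33 proteasome genes 0 passed (1). Of 59 mitochondrial ribosomal protein genes 3 were lower and 0 higher, 23 had an unadjusted p under 0.05, and the median of -0.20 was below 0 in all 5 pairs. *mrps-14* read 9.50, 9.14, 9.31, 9.56 and 9.51 with IVM and 9.81, 9.74, 9.96, 9.98 and 10.06 without, a fall of 0.51 (SE 0.08, adjusted p = 0.0145; 0.0621 without replicate 4) with no overlap. *mrps-23* and *mrpl-11* fell by 0.52 (SE 0.11) and 0.38 (SE 0.08) and were lost without any 1 replicate (adjusted p up to 0.164). *rpoa-12*, a subunit gene of RNA polymerase I, was the only call of 34 ribosome biogenesis genes, at -0.49 (adjusted p = 0.0465, SE 0.11), lost without any 1 replicate (adjusted p up to 0.174).

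Genes of cuticle and reproduction had few or no calls. Of 146 cuticle collagen genes *col-95* was higher, at 0.63 (SE 0.11, adjusted p = 0.022; up to 0.105 without replicate 1, 4 or 5), of 144 moulting and matrix genes *ptr-1*, a patched-related gene, was lower, at -0.35 (SE 0.08, adjusted p = 0.0443; lost without any 1 replicate, up to 0.146), and of 36 astacin protease genes 0 passed (5 at an unadjusted p under 0.05). *pqn-75* and *pqn-31* of 58 glutamine-rich genes rose by 0.65 (SE 0.11) and 0.61 (SE 0.11), both lost without replicate 1 or 4 (adjusted p up to 0.108). Of 73 sperm genes 0 passed (2 at an unadjusted p under 0.05), of 26 oocyte and eggshell genes 0 (2), of 34 germline genes 0 (2) and of 38 cell cycle genes 0 (4). The pairs differed widely here, with the oocyte median from -0.43 in pair 2 to 0.37 in pair 3, the sperm median from -0.75 in pair 2 to 0.34 in pair 4 and the germline median from -0.20 in pair 4 to 0.21 in pair 3. Of 34 histone genes the linker histone genes *hil-1* and *his-24* rose by 1.08 (SE 0.22) and 0.63 (SE 0.14) and *his-41* fell by 0.41 (SE 0.09), lost without replicate 1 or 4 among others (adjusted p up to 0.17). Of 287 F-box genes *fbxa-54* and *fbxa-69* rose by 0.57 (SE 0.10) and 0.51 (SE 0.11), both lost without replicate 1 or 4 (adjusted p up to 0.17), and of 93 MATH and BTB genes 0 passed (8 at an unadjusted p under 0.05). Of 1109 chemoreceptor-like genes the diacetyl receptor gene *odr-10* was the only call, at 0.39 (SE 0.08, adjusted p = 0.04; up to 0.161 without replicate 1, 3, 4 or 5).

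The change at 1 µg/ml was tested against that of the 100 ng/ml experiment, which has its own 5 pairs and a lower DMSO level of 0.001% v/v, so dose, solvent and experiment cannot be told apart. In limma over 20 arrays with 10 replicate blocks, 1 of 20563 probesets differed (0.00486%), with 1397 at an unadjusted p under 0.05. That probeset was of *cnc-4*, whose log2 fold change was 1.47 at 1 µg/ml and 0.02 at 100 ng/ml, a difference of 1.45 (adjusted p = 0.0119, SE 0.16). Leaving out single replicates of either experiment gave 0 to 4 probesets, and 0 without replicate 5 of the 1 µg/ml experiment or without replicate 1, 3 or 5 of the 100 ng/ml experiment. *lon-1* was at -1.1 and -0.08 in the 2 experiments (adjusted p = 0.571 for the difference), *hrg-7* at -1.36 and -0.31 (adjusted p = 0.698), *act-5* at -1.11 and -0.41 (adjusted p = 0.722) and *fat-7* at -1.19 and -1.09 (adjusted p = 0.982), so these differences did not pass the test. Replicate 4 of the 100 ng/ml experiment was regarded as an odd pair, though no check of that pair is given here, and the test above includes it. Without replicate 4 the log2 fold changes at 100 ng/ml were -0.27 for *lon-1*, -0.68 for *hrg-7*, -0.59 for *act-5*, -1.74 for *fat-7* and 0.06 for *cnc-4*. The test of the difference without it called 1 probeset.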

How the data were processed

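The deposited values are log2 probeset intensities that the authors made by RMA from 20 Affymetrix C. elegans arrays, and no array value column was left unused. The methods mention the removal of possible outlier arrays, but the table holds all 10 arrays of the 1 µg/ml experiment. From 20575 probesets 12 spike-in controls were left out. Probesets were named through the platform annotation and RefSeq (WBcel235): 19181 had 1 gene, 803 several and 579 none.

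IVM and control arrays were compared with limma 3.58.1 (R 4.3.3), with the biological replicate as a block and Benjamini-Hochberg adjustment over 20563 probesets at 0.05. The pairing rests on the methods, which divide each worm suspension between conditions, and arrays of one number had r of 0.499 to 0.884 after group means were taken off. Dose was tested over 20 arrays with 10 blocks. A gene was represented by its probeset of highest mean. Other probesets of a gene did not always share its call, as for *hphd-1*, *fmo-1*, *his-24* and *mrp-4*, where they had the same sign. The members and lists were chosen with earlier results of these data known. Genes were picked as the 10 largest rises and falls and up to 4 called members of each list. The extremes of short lists without calls, the mutated channels and *ama-1* were added. Not all genes picked in this way are described above. Those left out include some of the 10 largest rises, with log2 fold changes up to 3.20, and some of the 10 largest falls, down to -2.36. Other genes were chosen after their values were seen. *ama-1* was at -0.15 (SE 0.10, adjusted p = 0.58). Alternatives were the block, all 20 arrays, scaling, a filter on dim probesets, the variance prior, array weights, the threshold, probesets averaged by gene, single replicates left out, and Rank Products, which the methods name. Scripts were tested on simulated data. Promoter sequences were not analysed here. Figures and tables used Python 3.11.15, numpy 2.4.6, pandas 2.3.3 and matplotlib 3.10.9.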

Additional observations from a re-analysis of the deposited data

Results flagged for a closer look

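Within a group of 5 arrays, 1 array lay far from the others in 27 of 434 sets, where the gap to its neighbour exceeded Dixon's critical share of the range, and chance alone gives about 1 in 20. Replicate 2 accounted for 17 of these. It was low in both groups for the adult and oocyte genes, with *col-19* at 7.13 in the control and 6.54 with IVM, *vit-6* at 8.49 and 7.57, *vit-2* at 5.18 and 4.36 and *rme-2* at 7.58 and 6.84. It was high in both groups for *ins-35* (8.62 and 9.57). Its control array was high for *dhs-18* (9.63), *maoc-1* (10.15), *cest-4* (7.06) and *avr-14* (7.23) and low for *mpc-1* (9.85) and *skr-5* (4.68), and its IVM array was high for *nlp-15* (7.99). Replicate 5 was low with IVM for *icl-1* (10.10), *scl-2* (10.93), *cyp-37B1* (6.53) and *atg-16.2* (6.19), high with IVM for *trap-4* (11.23), low in both groups for *cyp-33A1* (7.32 and 6.42) and high in the control for *hlh-30* (5.72). Replicate 4 was high with IVM for *clpp-1* (7.74) and *fbxa-69* (5.46).

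The change of *cnc-4* differed between the 2 experiments by 1.45 on the log2 scale in the test of the difference from limma (adjusted p = 0.0119). Dose, solvent level and experiment cannot be told apart there.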

How the results depend on the processing

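Of the 434 higher and 281 lower probesets, the fit without the replicate block kept 45 and 19, and an adjusted p under 0.10 gave 701 and 533. Rank Products, which was run without the pairing and so differs from the main fit in that too, gave 175 and 124, with 164 and 102 shared. Leaving out single replicates gave 145 to 510 higher and 60 to 267 lower. Of 198 called genes named in the text, 50 kept the call whichever replicate was left out, while 136 lost it without replicate 1, 136 without replicate 4, 58 without replicate 5, 51 each without replicates 2 and 3, and 179 without the block. A second quantile normalization gave 438 and 298, centring 433 and 280, probesets above the median level 444 and 314, a trended robust prior 517 and 322, array weights 587 and 386 and all 20 arrays in one fit 541 and 375, of which only 373 and 241 were among the 434 and 281, and 26 of the called genes named in the text lost the call in that fit, *acdh-1*, *acdh-2*, *acs-2*, *fat-6* and *fat-7* among them. Leaving out replicates 2 and 3 together, chosen after seeing the data, gave 555 and 236. Of the 70 list medians 4 changed sign on centring, 3 on a second quantile normalization, 3 with probesets averaged by gene, 0 without the block and 6, 12, 11, 10 and 7 without replicates 1 to 5. Under the first 2 settings these were mitochondrial fatty acid oxidation, oxidative phosphorylation, short-chain dehydrogenases, flavin monooxygenases with alcohol and aldehyde dehydrogenases, cytosolic ribosomal proteins, translation factors and F-box genes, all near 0. For the difference between experiments the 1 probeset with a larger change became 0 without the block and 0 to 4 without single replicates. Leaving out single replicates moved *vit-2* between -0.193 and 0.11 and *vit-6* between -0.205 and 0.12, positive without replicate 2, and leaving out replicates 2 and 3 gave 0.0153 for *vit-2*, 0.0326 for *vit-6*, 0.0018 for *col-19* and -0.0125 for *fat-1*, none of them called. The arrays' number limits the precision, and log2 RMA values near the low end of the range have no detection call here, so small changes there are uncertain.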

Other observations

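Further gene groups, assembled after the values had been seen, are given here as values only. Of 18 genes of the translocon, the signal peptidase and the oligosaccharyltransferase, which bring secreted proteins into the endoplasmic reticulum and give them sugars, 5 fell and 0 rose at an adjusted p under 0.05 from limma, and the median log2 fold change was -0.37. The other members did not pass, 12 with values below 0 and 1 above. The 5 were *sec-61.B* at -0.70, *trap-1* at -0.60, *trap-4* at -0.59, *trap-2* at -0.58 and *dad-1* at -0.39. Of 27 genes of vesicle coats and cargo receptors *erd-2.1*, *ergi-3* and *sec-22* fell by 0.68, 0.64 and 0.52 and 0 rose. Of 10 genes of pyruvate entry into mitochondria the carrier genes *mpc-1* and *mpc-2* fell by 0.59 and 0.62, while *pdhk-2*, the kinase gene that turns off pyruvate dehydrogenase, rose by 0.62. Of 42 genes of triglyceride and phospholipid synthesis 6 fell, among them *dgat-2* at -0.68 and *acl-1* at -0.64, and *pmt-1* rose.

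Of 26 transcription factor genes of fasting and fat 2 were higher and 1 lower, and the others did not pass. *pqm-1* and *mdl-1* rose by 0.74 and 0.91 and *mxl-3*, which encodes a repressor of lysosomal lipases, fell by 0.59. Of 20 basic leucine zipper, immune and stress regulator genes 5 were higher and 1 lower, and the others did not pass. The basic leucine zipper gene *zip-2*, which is induced when translation is blocked by pathogens, rose by 0.88, *nipi-3* by 0.54, *mak-2* by 0.87, *ikb-1* by 0.64 and *sta-1* by 0.55, and *zip-3* fell by 0.44. The bestrophin chloride channel genes *best-1*, *best-24* and *best-21* rose by 1.64, 1.12 and 0.77, and 0 of 25 bestrophin genes fell. Of 18 genes of the SKP1-related family *skr-5* and *skr-19* rose by 0.88 and 0.84. Of the genes in these 2 paragraphs *pdhk-2*, *best-1*, *pqm-1*, *skr-19*, *mak-2* and *ikb-1* were called whichever replicate was left out, and the others were lost without 1 or more replicates (adjusted p up to 0.172).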
